A study of Mus musculus with 4 samples.

Results

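Hypoxia-only shoulders of distal peaks are short stretches of chromatin that the peak caller assigned to hypoxia alone and that lie directly against a peak it assigned to both oxygen levels. A shoulder was selected when it was narrower than 1000 bp, when its start or end was adjacent to a shared peak, and when no touching shared peak lay within 1 kb of the start site of a protein-coding transcript. The rule found 6223 shoulders, which were 4.86% of all 128055 peaks and 71.1% of the 8754 peaks assigned to hypoxia alone. They touched 8825 of the 102796 shared peaks away from promoters. The shoulders were selected on the caller's assignment to hypoxia alone, which was made from the same 4 libraries that are described here. The drop in normoxia was therefore part of the choice, and every normoxia over hypoxia value given for them or for the peaks they touch is a description without a test.

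The cells were mesenchymal stem cells (MSCs), the stromal progenitors that give rise to bone, cartilage and fat, from the bones of male C57BL/6N mice aged 3 to 5 months. All were sorted as CD45-, Ter119-, Sca-1+ and CD140a+ cells, that is, without markers of blood cells and with surface markers of mesenchymal progenitors. Cells of the hypoxia group were kept at 2% O2, and cells of the normoxia group were moved to 21% O2 for 7 days. No gene was altered in either group. There were 2 ATAC-seq libraries per group, numbered 1 and 2 in the labels, and which mice each came from was not stated there.

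ATAC-seq uses the Tn5 transposase to insert sequencing adapters into DNA that is not covered by nucleosomes or other tightly bound proteins, so read density follows accessibility. Distal accessible regions include enhancers, which are bound by transcription factors and are often specific to a cell type. An accessible region has no sharp border: read density falls off on either side of its centre, and neighbouring regions can run into each other. A caller that works in bins places its borders along this slope.

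The shoulder with the lowest normoxia over hypoxia ratio and the one with the highest ratio are shown as sequence (RefSeq GRCm38.p6, the mm10 build, plus strand, 5′ to 3′), to let a reader see what such stretches look like. The ratios were ranked among the 791 shoulders with a mean of at least 20 recovered hypoxia reads. Capitals mark matches, on either strand, to the motif letters spelled out with the motif results. The first is chr9:63839501-63839600, 100 bp of intergenic sequence between 2 shared peaks, whose nearest coding gene was Smad3. The second is chr1:17571101-17571400, the 300 bp next to the touching peak in a shoulder of 700 bp nearest to Pi15.
Smad3 shoulder: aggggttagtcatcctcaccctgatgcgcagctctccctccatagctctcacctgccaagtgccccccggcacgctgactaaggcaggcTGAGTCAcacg
Pi15 shoulder: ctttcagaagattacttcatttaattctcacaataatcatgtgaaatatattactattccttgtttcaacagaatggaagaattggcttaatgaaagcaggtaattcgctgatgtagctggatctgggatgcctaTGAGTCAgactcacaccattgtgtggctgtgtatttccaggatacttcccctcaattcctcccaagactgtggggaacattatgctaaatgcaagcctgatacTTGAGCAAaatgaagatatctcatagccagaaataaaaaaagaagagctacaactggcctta
The first sequence held 1 match, to the AP-1 letters, and no base soft-masked as a repeat. The second held 1 AP-1 and 1 C/EBP match. AP-1 is the dimer of Fos and Jun proteins that binds many enhancers in stromal cells, and C/EBP proteins act in fat cell formation. A match in these letters is not evidence of binding.

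The shoulders were narrow, and somewhat more of them lay between shared peaks than at an outer border. Their median width was 200 bp, and 4375 of them (70.3%) were 100 to 300 bp wide. A shared peak lay against both sides of 3391 shoulders (54.5%), which are called bridges here. The other 2832 formed an outer edge, with 1424 at the right and 1408 at the left of the touching peak. Of these edges, 50.8% faced the nearest coding start site. The median gap from an edge to the next peak on its free side was 6400 bp, and 191 edges (6.74%) had another peak within 1 kb. Together the 6223 shoulders covered 1817.4 kb, against 15095.9 kb in the shared peaks they touched.

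Shoulders lay about as far from start sites as shared distal peaks did, and mostly in introns. The median distance to a coding start site was 32.05 kb, beside 34.35 kb for all shared distal peaks and 30.97 kb for the touching ones. The rule left out shoulders whose touching peak lay within 1 kb of such a site. Of the shoulders, 5820 (93.5%) lay 5 kb or more away, and 2224 (35.7%) more than 50 kb. By the GENCODE M21 annotation, 51.3% lay in introns, 39.0% between genes and 9.64% over exons. Of all shared distal peaks, 43.1% were intronic, 41.2% intergenic and 15.7% exonic, but these are wider (median 1000 bp) and so reach an exon more easily. The rule kept shoulders near start sites of noncoding transcripts, and 757 of the 6223 would have been left out had these start sites been counted.

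In hypoxia the shoulders carried reads well above the genome outside peaks, and in normoxia they were at its level. The library totals recovered from the deposited values were 28259470 and 29413803 reads in hypoxia and 26680936 and 29965523 in normoxia. The shoulders together held 57026 reads in hypoxia 1, 76315 in hypoxia 2, 13486 in normoxia 1 and 13777 in normoxia 2. The summed value per 100 bp, a density, was 1.11 in hypoxia 1 and 1.43 in hypoxia 2, against 0.278 and 0.253 in the normoxia libraries. The groups did not overlap, and the hypoxia libraries lay further from each other than the normoxia libraries did. The remaining genome had a density of 0.175 and 0.153 in hypoxia, below its 0.275 and 0.254 in normoxia. Shoulders were thus 6.34 and 9.31 times as dense as the genome outside peaks in the hypoxia libraries, and 1.01 and 0.995 times as dense in the normoxia libraries. For the touching shared peaks the same ratios were 15.9 and 20.3 with low oxygen and 5.92 and 7.28 at 21% O2.

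Both normoxia libraries placed a smaller share of their reads in peaks. Nuclear peaks held 49.2% and 53.2% of the reads under hypoxia but 31.0% and 35.2% under normoxia, and the part of this difference in the values of the shoulders was not tested. Over all peaks, the median log2 ratio of normoxia to hypoxia was −0.48 with values as deposited.

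**Figure D1:**
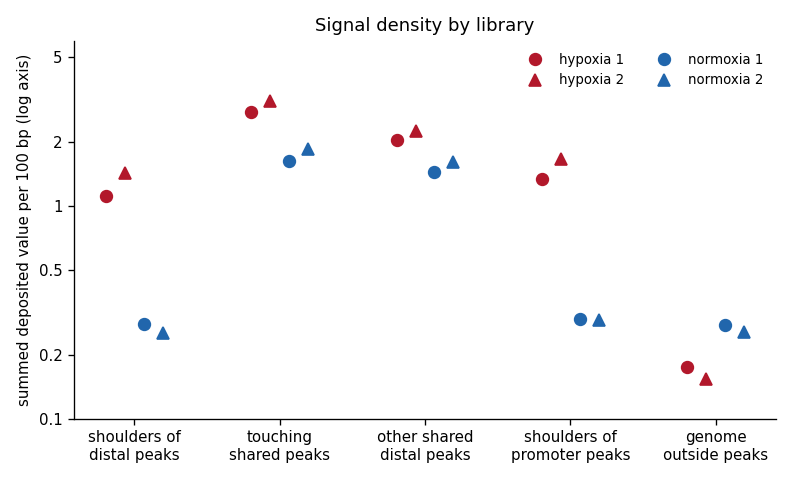
Summed deposited value per 100 bp (log axis) in each of the 4 libraries, for the 6223 shoulders, the shared peaks they touch, the other shared distal peaks, the 1972 shoulders of promoter peaks, and the genome outside peaks. Circles are libraries numbered 1, triangles libraries numbered 2, red is hypoxia and blue is normoxia. The shoulders fall in normoxia to the density of the genome outside peaks, which was itself higher in normoxia than in hypoxia.

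Within a library the scaling cancels, so each shoulder was also set against the shared peak it touches (the mean of both for a bridge). The median shoulder reached 43.8% of the density of its touching peak in hypoxia 1 and 53.6% in hypoxia 2. In normoxia it reached 14.97% and 10.98%. The difference between the groups in log2 of this share was −1.92. The spread between libraries, taken as the square root of the summed variances of both groups, was 0.38. The choice of the shoulders set the direction of the difference, so these values make no test. Of the 6223 shoulders, 4031 (64.8%) were below the touching peak in all 4 libraries, 718 (11.5%) were denser than it in both hypoxia libraries and 14 (0.225%) in both normoxia libraries. When densities were summed over all shoulders and over all touching peaks instead, the shares were 39.9% and 45.8% for hypoxia and 17.1% and 13.7% for normoxia.

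The median log2 ratio of normoxia to hypoxia was −2.36 for the shoulders (a ratio of 0.195) and −0.69 for the touching peaks (0.620). It was −0.36 for the other 93971 shared distal peaks (0.781). The direction for the touching peaks depended on the scaling: with every library scaled to an equal total over all peaks, their median was 0.08 and that of the shoulders −1.57. With relative log expression (RLE) factors, which centre the typical peak, the medians were −0.21 and −1.87. A library factor moves both sets alike, so the gap between them does not depend on it. Both normoxia libraries were below both hypoxia libraries in 4806 shoulders (77.2%), where 59.5% of all peaks had this order, and both were above in 9 (0.145%), where 6.94% of all peaks did. Among touching peaks the lower order was found in 73.7%. The rule used this contrast, so nothing is read from these counts.

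The gap was smaller in the 791 shoulders with a mean of at least 20 hypoxia reads, whose median log2 ratio was −2.19 beside −0.83 for the peaks they touch, against −2.36 and −0.71 over all shoulders counted in the same way. These 791 passed on the group in which they are high, so their ratios are given as a description.

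**Figure D2:**
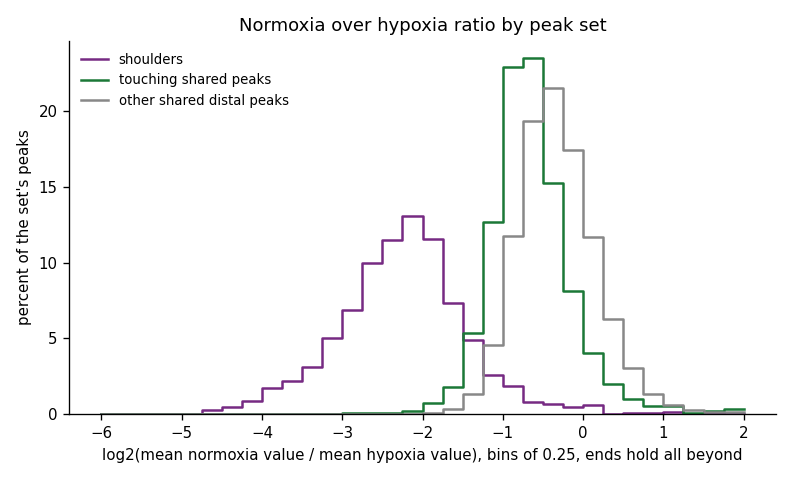
Share of peaks (percent of each set, y axis) by log2 of the mean normoxia over the mean hypoxia value (x axis, bins of 0.25), for the shoulders, the touching shared peaks and the other shared distal peaks, with values as deposited. The medians of the sets were −2.36 for the shoulders, −0.69 for the touching peaks and −0.36 for the other shared distal peaks. That of the shoulders ranks those with hypoxia reads but no normoxia read below every drawn ratio. The fullest shoulder bin, with 13.1%, starts at −2.25. The 841 shoulders without reads in one of the groups or in both have no finite ratio and are not drawn, so the shoulder line sums to less than the whole set.

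Most single shoulders rested on few reads. A median of 6 reads in hypoxia 1 and 9 in hypoxia 2 fell in a shoulder, and 1 in each normoxia library. No normoxia read fell in 825 shoulders, 769 of them at most 200 bp wide. No hypoxia read fell in 38, of which 37 were 100 bp wide, and 22 held no read in any library although the caller had assigned them to hypoxia. In 79 shoulders the mean was higher in normoxia than in hypoxia, and 16 of these had no hypoxia read. Single narrow shoulders are therefore not resolved at this depth.

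Shoulders were also described by width, where wider ones hold more reads. Both normoxia libraries were below both hypoxia libraries in 58.4% of the 1814 shoulders of 100 bp, in 82.5% of the 1175 of 300 bp and in 96.6% of the 89 of 900 bp, where 59.5% of all peaks had this order. The median log2 ratio went from −2.69 at 100 bp to −1.98 at 900 bp. Just outside the width limit, the 55 touching hypoxia-only peaks of 1000 bp had a median log2 ratio of −1.92. At the distance limit, 61 shoulders whose touching peak lay just beyond 1 kb from a coding start site had a median of −2.58, and 64 left out because it lay just within 1 kb had −2.59.

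Position on the shared peak made little difference to the log2 ratio of normoxia to hypoxia. Bridges had a median log2 ratio of −2.33, right edges −2.47 and left edges −2.37. Bridges were denser relative to the peaks beside them, with a median ratio of shoulder to touching density of 0.515 and 0.649 in hypoxia, against 0.362 and 0.422 for edges. In normoxia the ratios were 0.179 and 0.138 for bridges and 0.114 and 0.0793 for edges. Edges facing the start site had a median log2 ratio of −2.42, and edges facing away from it −2.43.

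The other hypoxia-only peaks had similar densities. Shoulders of promoter peaks had a median density of 1.06 and 1.36 in the hypoxia libraries, where shoulders of distal peaks had 0.944 and 1.25. In the normoxia libraries these medians were 0.187 and 0.216 beside 0.187 and 0.167. The 229 hypoxia-only peaks that touched no shared peak had 1.30 and 1.603 with low oxygen and 0.281 and 0.267 without. Median log2 ratios were −2.39 for the promoter shoulders, −2.33 for the peaks that touched no shared peak and −1.91 for the 342 of 1000 bp or more.

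limma, fitted on all 128055 peaks after RLE scaling of log2(value + 1) with a false discovery rate (FDR) under 0.01, called 349 shoulders (5.61%) lower in normoxia, where it called 4.57% of all peaks. It called 0 shoulders higher, where it called 1.77% of all peaks. At an unadjusted limma p under 0.05, 0 shoulders were higher and 3002 were lower. Of all 128055 peaks 37599 had such a p, and 16023 of these were higher. Among touching peaks, 733 (8.31%) were called lower and 41 higher. edgeR on the recovered reads called 462 shoulders lower, where it called 5.70% of all peaks. It called 0 shoulders higher, where it called 3257 of all peaks. The median limma log2 change of the shoulders was −1.01 with all 4 libraries, −1.16 without hypoxia 1 and −0.91 without hypoxia 2. The counts of shoulders called lower rested on both hypoxia libraries: when either was left out, the calls were lost for shoulders and for all peaks alike. Without normoxia 1 the count was 530, where 3.78% of all peaks were called. With values as deposited limma called 1972 shoulders and 24.0% of all peaks. Since the contrast chose the shoulders, these counts are given only as a description.

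Shared distal peaks at both ends of the density range were touched more often than those in between. Among 10 equal classes by mean value per 100 bp, 22.2% of the weakest class touched a shoulder, 3.93% of the fourth, and 17.9% of the strongest. By width, 12.6% of shared distal peaks of up to 500 bp touched one, 5.07% of those of 600 to 1000 bp and 21.4% of those over 5 kb. Of the 8825 touching peaks, 8036 touched 1 shoulder and 789 touched 2.

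Shoulders joined shared peaks into longer runs of touching peaks. There were 5392 such runs with at least 1 shoulder, with a median width of 2200 bp where the shared pieces alone had 1200 bp. Most runs (4794) held a single shoulder, 464 held 2, and 134 held 3 or more. The runs with the most shoulders, named here after their values were seen, held 9 each. One of them spanned 80.7 kb near Atic and Fn1 (chr1:71574801-71655500), where Fn1 encodes the matrix protein fibronectin. Another spanned 50.5 kb near Anxa2 (chr9:69452701-69503200), which encodes a membrane-binding annexin. The third spanned 33.8 kb near Col12a1 (chr9:79578301-79612100), the gene of a fibril-associated collagen.

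In the Fn1 run the 9 shoulders held 160 and 283 reads in hypoxia and 48 and 34 in normoxia. Their summed density was 5.21-fold lower in normoxia, and that of the 11 shared peaks of the run 2.11-fold lower. In the Col12a1 run the 9 shoulders held 151 and 163 reads in hypoxia and 36 and 22 in normoxia. They were 5.22-fold lower in normoxia and the 15 shared peaks 1.78-fold lower. The Fn1 run also held 1 other hypoxia-only peak and the Col12a1 run 6. With values as deposited the shared pieces were also lower in normoxia, which for touching peaks as a whole turned under equal totals. The Anxa2 shoulders had 108 and 128 reads in hypoxia and 25 and 22 in normoxia.

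**Figure D3:**
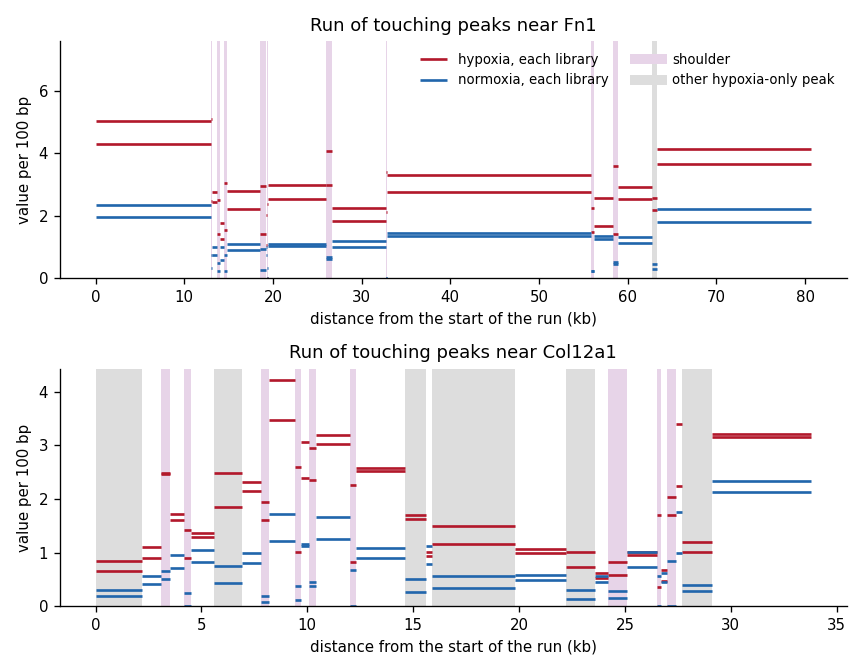
Deposited value per 100 bp (y axis) of each touching peak along the runs near Fn1 (11 shared peaks, 9 shoulders) and Col12a1 (15 shared peaks, 9 shoulders), by distance from the start of the run in kb (x axis). Red lines are the hypoxia libraries and blue lines the normoxia libraries, purple bands mark shoulders, and grey bands mark hypoxia-only peaks that are no members because they are 1000 bp or wider or touch a promoter peak. The summed density of the shoulders is 5.21-fold lower in normoxia in the Fn1 run and 5.22-fold lower in the Col12a1 run, against 2.11-fold and 1.78-fold for the shared peaks.

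The X chromosome held more shoulders per shared peak than any autosome. On X there were 535 shoulders (8.60% of all) and 2160 shared distal peaks (2.10%), or 24.8 shoulders per 100 shared distal peaks. Chromosomes 1 and 3 held nearly as many shoulders, 498 and 495, but many more shared distal peaks, 7701 and 6194. The 19 autosomes ranged from 3.84 on chromosome 11 to 7.99 on chromosome 3, with 5.65 over all of them. The same held for the other hypoxia-only peaks, since X held 12.4% of the promoter shoulders and 14.4% of the peaks that touched no shared peak. Shoulders on X had a median log2 ratio of −2.18, those on autosomes −2.37. Shared distal peaks on X had median densities of 1.47 and 1.74 at 2% O2 and of 1.12 and 1.30 at 21% O2. The median touching peak was 800 bp wide on X and 1300 bp on autosomes. The parts of peak width, of the low number of shared peaks on X and of the male sex of the mice in these rates were not tested.

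**Figure D4:**
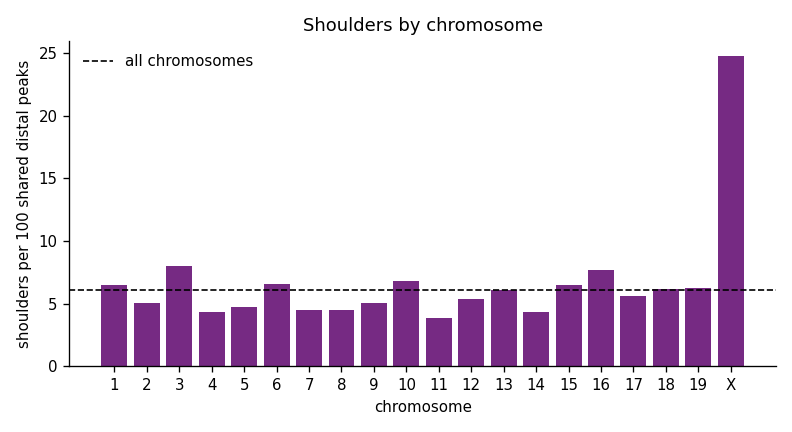
Number of shoulders per 100 shared distal peaks (y axis) for each autosome and X (x axis), with the dashed line at the value over all chromosomes, 6.05. The autosomes lie between 3.84 and 7.99, and X at 24.8. Y is not drawn because it held only 10 shared distal peaks.

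Among the 5 shoulders with the highest density in hypoxia, 1 lay 86.1 kb from the start site of Stac, which encodes an adaptor protein, over an exon of that gene (chr9:111603901-111604200). It held 90 and 79 reads in hypoxia and 9 and 23 in normoxia. Its density of 10.6 and 8.95 in hypoxia was above that of the peaks on either side, at a mean of 1.78 and 1.92. In normoxia it had 1.12 and 2.56, beside 0.659 and 0.982 on either side.

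The 789 shared peaks that touched 2 shoulders had a median width of 1100 bp, and the 8036 that touched 1 had 1200 bp. Of the 789, those described here were picked by a value that is not divided by width, and were wide. They were a 23000-bp peak over Fn1 (chr1:71607701-71630700) and a 20100-bp peak near Timp3 (chr10:86322501-86342600), which encodes an inhibitor of matrix proteases. The Fn1 peak was 2.17-fold lower in normoxia. Its left shoulder held 6 and 10 reads in hypoxia and 0 in both normoxia libraries, and its right shoulder 19 and 13 in hypoxia and 2 in each normoxia library, 7.86-fold lower. The Timp3 peak was 1.87-fold lower. Its right shoulder held 32 and 39 reads in hypoxia and 10 and 9 in normoxia, 3.64-fold lower. Its left shoulder held 24 and 8 reads in hypoxia and 0 and 10 in normoxia, so the groups overlapped there although the means differed 3.36-fold.

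The lowest ratios among shoulders with at least 20 hypoxia reads came with almost no normoxia reads. The Smad3 shoulder shown above held 21 and 19 reads in hypoxia and 0 and 1 in normoxia (log2 ratio −5.38), while its touching peaks had a log2 ratio of −0.83. Smad3 is a transcription factor of the TGF-beta pathway, and its start site was 81.5 kb away. Shoulders in introns of Ptprm, a receptor phosphatase (chr17:67007701-67008200), Arhgap31, a GTPase-activating protein (chr16:38699701-38700300), and Sgcd, a sarcoglycan of the dystrophin complex (chr11:47128401-47128800), and 1 in an intron of Cuedc1, nearest to the start site of Mrps23 (chr11:88188201-88188600), had log2 ratios from −4.53 to −3.80. Their touching peaks ranged from −1.18 to −0.75.

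The highest ratios came mostly with hypoxia libraries that differed from each other. The Pi15 shoulder held 6 and 36 reads in hypoxia and 10 and 9 in normoxia (log2 ratio −1.09). The Trps1 shoulder (chr15:50688601-50689400), in an intron of a GATA-type repressor of skeletal development, held 7 and 42 reads in hypoxia and 7 and 14 in normoxia. In 4 of these 5 shoulders the groups overlapped, and in each of the 4 hypoxia 1 was below at least 1 normoxia library. The exception was the shoulder nearest to Arf2 (chr11:103989201-103990100), with 25 reads in each hypoxia library and 10 and 13 in normoxia.

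Gene lists were used to describe which loci the shoulders lay near, by the nearest coding start site, which need not be the gene a distal element acts on. The extracellular matrix list had the most: 77 shoulders were nearest to 14 of its 17 genes, or 16.8 per 100 shared distal peaks nearest to the list, where all genes together had 6.05. Col12a1 alone accounted for 23, Fn1 for 8, and Col5a2, Col3a1 and Tnc for 7 each. The hypoxia response list had 19 shoulders near 8 of 18 genes (10.6 per 100), the stem cell identity and niche list 27 near 9 of 16 genes (9.12), and the TGF-beta, BMP and Wnt list 45 near 16 of 22 genes (8.51). Nearer to the value of all genes were the osteogenic list with 14 near 6 of 16 genes (7) and the AP-1 and immediate-early list with 15 near 6 of 13 genes (6.94). The adipogenic list had 5 near 4 of 11 genes (3.94). The list of other cell types had 7 near 3 of 11 genes (5.56). Median log2 ratios of the lists lay between −2.44 and −2.07, close to the −2.36 of all shoulders, and the genes with many shoulders give neighbouring, not independent, ones.

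Among shoulders near osteogenic genes, that of Dlx5 (chr6:6874601-6875400), a homeobox factor of bone formation, had values of 11.7 and 10.9 in hypoxia but 3.00 and 3.00 in normoxia. The shoulder nearest to Msx2 (chr13:53461801-53462200), another homeobox factor, had 5.31 and 10.9 in hypoxia but 4.12 and 0.667 in normoxia. Replicates were close for Dlx5 and apart for Msx2.

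Near hypoxia response genes, the shoulder nearest to Adm (chr7:110654401-110654900), which encodes the vasodilator peptide adrenomedullin, had values of 11.3 and 14.6 in hypoxia and 4.12 and 2.00 in normoxia. Of 3 shoulders near Vegfa, the main angiogenic growth factor, the strongest (chr17:46012801-46013500) had 13.8 and 9.18 in hypoxia but 3.00 and 4.34 in normoxia. The next (chr17:46009101-46009700) had 13.8 and 7.14 against 4.12 and 1.67. The third, of 100 bp (chr17:46011101-46011200), had too few reads to describe. In the first 2 the normoxia values were all below the hypoxia values.

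Among genes of MSC identity, the shoulder nearest to Cd44, a hyaluronan receptor (chr2:102939101-102939800), had values of 9.20 and 14.3 in hypoxia but 5.25 and 1.001 in normoxia. The shoulder nearest to Nt5e, which encodes the MSC surface marker CD73 (chr9:88276101-88276700), had 9.20 and 11.2 against 0.75 and 2.67. The one within an intron of Pdgfrb, a receptor for platelet-derived growth factor, had 10.6 and 8.50 against 3.00 and 0.334. Normoxia libraries differed by several-fold in each, at 1 to 14 reads.

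Near immediate-early genes, the shoulder nearest to Jun (chr4:95162101-95162700), a subunit of AP-1, had values of 7.79 and 17.7 in hypoxia but 4.87 and 3.00 in normoxia. The one nearest to Egr1, a growth-factor-induced zinc finger factor, had 8.14 and 16.0 against 2.62 and 4.67, and the one nearest to Klf6 (chr13:5877801-5878000) 2.83 and 7.82 against 0.75 and 1.67. In all of these hypoxia 1 was the lower hypoxia library.

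Signalling genes held the shoulder with the highest value of those named by the lists. It was nearest to the start site of Bmpr1b, a receptor for bone morphogenetic proteins, 58.4 kb away (chr3:142227801-142228600), and had values of 42.5 and 45.6 in hypoxia and 6.75 and 9.01 in normoxia, from 120 and 134 reads against 18 and 27. Its density of 5.31 and 5.69 in hypoxia compared with 8.43 and 8.65 in the touching peaks, and 0.843 and 1.13 with 2.64 and 3.32 in normoxia. The shoulder nearest to Dkk2, a secreted Wnt antagonist (chr3:131867901-131868400), had values of 15.2 and 15.3 against 3.75 and 2.67. The one nearest to Sfrp1, another Wnt antagonist (chr8:23455701-23456500), had 9.91 and 18.02 against 2.25 and 3.00.

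Near matrix genes, the shoulder nearest to Col1a2, a chain of collagen I (chr6:4418101-4418400), had values of 11.7 and 17.3 in hypoxia and 1.87 and 4.34 in normoxia. That nearest to Col5a1, a chain of collagen V (chr2:27813501-27813900), had 15.9 and 11.9 against 2.62 and 2.34, and that nearest to Tnc, which encodes tenascin C (chr4:64077101-64077600), 12.7 and 13.6 against 2.62 and 2.67. Near adipogenic genes, the shoulder nearest to Pparg, the main regulator of fat cell formation (chr6:115322001-115322900), had 7.08 and 11.9 against 2.25 and 3.34. The shoulder in an intron of Ebf2 (chr14:67291101-67291200) had 10 and 7 reads in hypoxia and 0 in normoxia, and that nearest to Cebpd, in an intron of Spidr (chr16:15983701-15983900), 6 and 5 against 2 and 0.

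Among genes of blood and endothelial cells, which the sort should leave out, the shoulder nearest to Ptprc, the CD45 gene (chr1:137899401-137899600), lay 275.6 kb from its start site and had values of 2.83 and 8.50 in hypoxia but 1.12 and 2.00 in normoxia. Of 4 shoulders nearest to Cdh5, the one with the highest hypoxia value (chr8:104024001-104024700) had 4.95 and 4.76 against 2.25 and 0. Ptprc, Itgam and Cdh5 had no promoter peak. All 6 mesenchymal markers checked (Pdgfra, Ly6a, Pdgfrb, Prrx1, Twist1 and Cxcl12) had a promoter peak, with summed values of 1044 and 1058 with low oxygen and 569.7 and 627.1 without. Of the 5 blood markers, 3 had one, with summed values of 549.2 and 515.1 in hypoxia, 321.2 and 368.8 in normoxia, and nearly all of it came from a wide peak at Cd68 that also covers start sites of Eif4a1 and Mpdu1. Of the 3 endothelial markers, Pecam1 and Kdr had weak ones, 33.3 and 38.4 in sum in hypoxia and 23.2 and 36.7 in normoxia. The Pecam1 peak also covers a start site of Milr1.

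**Figure D5:**
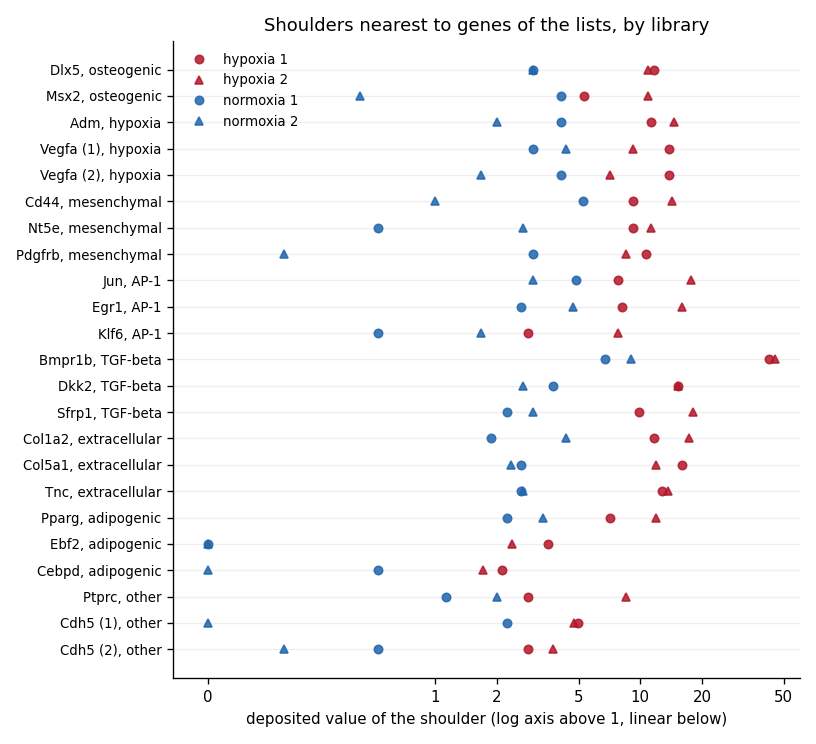
Deposited value (x axis, log above 1 and linear below) in each of the 4 libraries for 23 shoulders named by the gene lists, each labelled with its nearest coding gene and the first word of its list. Red is hypoxia, blue is normoxia, circles are libraries numbered 1 and triangles libraries numbered 2. Both normoxia libraries lie below both hypoxia libraries in all 23, where 59.5% of all peaks have this order and where that order helped to choose the shoulders.

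Beyond the lists, shoulders spread over 3299 nearest genes, of which 1990 had 1 and 215 had 5 or more. Genes with many were named after their counts were seen. Mid1, an X-linked ubiquitin ligase, had 29 shoulders and 45 shared distal peaks, and Bcor, an X-linked corepressor, had 18. On autosomes, Col12a1 had 23 and Foxp1, a forkhead repressor, had 14. The 29 Mid1 shoulders together held 210 and 354 reads in hypoxia and 54 and 82 in normoxia, 4.09-fold lower in value.

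The reference sequence of shoulders was described because the rule did not use it. Over all 6223 shoulders the GC content was 45.0% and 23.6% of bases were soft-masked repeats, against 45.7% and 18.1% in the touching peaks and 45.9% and 16.9% in the other shared distal peaks. These are whole and mostly wider peaks, and windows of equal length are compared below. Shoulders in exons had 16.7% repeats, those in introns 23.1% and those between genes 26.2%.

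To compare equal lengths, the 300 bp running outward from the touching peak and the 300 bp running inward were searched for motif letters on both strands at the 2832 edge shoulders and at 182111 free edges of the other shared distal peaks. The AP-1 letters TGANTCA were found in 10.9% of outward windows of shoulders and 16.1% of inward windows, and in 7.52% and 14.6% of those at the other edges. Shoulders thus lay between the outside and the inside of other peaks for these letters. The TEAD letters GGAATG, bound by partners of the YAP coactivator, were in 14.7% of the outward windows, against 14.9% at other edges. The RUNX letters TGTGGT, bound by the osteoblast factor Runx2 and its relatives, were in 22.3% against 20.5%, and the HIF letters ACGTG, core of the hypoxia response element, in 14.0% against 12.8%. The E-box CAGCTG was in 12.9% against 12.2%, the C/EBP letters TTGCNNAA in 12.6% against 11.8%, the GATA letters AGATAA in 16.0% against 17.8%, the homeobox letters TAATTA in 8.86% against 9.62%, and the CRE letters TGACGTCA, which differ from AP-1 by an added base, in 0.318% against 0.159%. Of the outward motif shares, that of AP-1 differed between shoulders and other edges by more than 2 percentage points, and the others by less. Soft-masked repeats made up 23.9% of bases in the outward windows of shoulders, below the 26.0% at other edges. In the inward windows they made up 19.2% and 18.6%. No test was made, since regions are not replicates, and windows wider than the shoulder reach beyond it. The other edges came only from peaks at least as wide as the window, a limit not set on touching peaks. Inward windows at shoulders can therefore run past a narrow touching peak, and those at other edges cannot run past theirs.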

How the data were processed

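ATAC-seq reads were aligned by the authors to mm10 with bowtie2 in local mode, duplicates were removed with Picard, and a single peak set for both oxygen levels came from chromstaR, run in differential mode (bins of 300 bp, steps of 100 bp, mapping quality 15). The deposited signal per peak and library, named RPKM by the authors, is not divided by peak width. Within a library 100% of values came out as a whole number of reads (tolerance 0.01), and the inverse of the value of 1 read, at the scale where it is a whole number in all 4 libraries, was taken as the library total. The shares of reads in peaks and the density outside peaks rest on this scale, whereas ratios between libraries and between regions do not. That density was taken over the known nuclear bases outside peaks.

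Members and gene lists were chosen with earlier results of these data known. Start sites were those of protein-coding GENCODE M21 transcripts. limma 3.58.1 (R 4.3.3, trend and robust) was fitted to log2(value + 1) after RLE scaling of all 128055 peaks, with Benjamini-Hochberg adjustment and an FDR of 0.01, and edgeR 4.0.16 was fitted to the recovered reads, where it called 7296 peaks lower and 3257 higher. The scripts were tested on simulated data. Each shoulder was named by its nearest coding start site. Named were the 5 with the highest hypoxia density, the 5 with the lowest and the 5 with the highest ratio among those with a mean of at least 20 hypoxia reads, up to 3 per gene list by hypoxia value, and the 3 shared peaks touched by the most shoulders, with ties broken by value. Some of the shoulders, peaks and genes that this rule names are not reported here. Alternatives changed the scaling, the pseudocount, a minimum value, the FDR, the replicates, the replicate block and the rule. The labels number the libraries 1 and 2 in each group but do not say whether they came from separate mice, while the study describes its replicates as biologically independent experiments. The p-values measure the spread between these libraries. Read numbers cover counting error only.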

Additional observations from a re-analysis of the deposited data

How the results depend on the processing

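The number of shoulders stayed within 1.5 times of 6223 under all 6 other rules (5007 to 6244), including autosomes only (5684), which was chosen after seeing the data. Of 66 alternatives in all, 37 kept their result, 28 moved it and 1 reversed it. A log2 value was kept when it differed by less than the spread between libraries, and reversed when its sign turned. A count was kept when it stayed within 1.5 times. The motif window alternative was entered as moved without such a limit. The median log2 ratio of the shoulders, −2.36, was −1.87 with RLE factors, −1.57 with equal totals, −1.26 with 1 added to the values and −0.48 with 5 added, and lay between −2.75 and −2.09 when a library was left out. Where nothing was added, shoulders with hypoxia reads but no normoxia read ranked below every finite ratio. No normoxia read fell in 13.3% of shoulders, but in 33.1% once normoxia 1 was left out and in 31.5% once normoxia 2 was. The medians without a normoxia library, −2.75 and −2.49, include this. That of the touching peaks, −0.69, was −0.21 with RLE factors, −0.48 with 5 added and 0.0818 with equal totals, where it turned. With 5 added, shoulders and touching peaks thus had the same median, since the added amount exceeds most shoulder values. The change in relative density, −1.92, was −1.46 in shoulders with at least 20 reads and −1.48 with summed values.

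The 349 shoulders called lower by limma (5.61%, where 4.57% of all peaks were called) became 1972 with values as deposited (31.7%, all peaks 24.0%). They became 168 with equal totals (2.7%, all peaks 0.837%) and 149 with quantile normalization (2.39%, all peaks 0.759%). With a pseudocount of 0.1 they were 174 (2.8%, all peaks 3.35%), and at an FDR of 0.05 they were 1445 (23.2%, all peaks 9.68%). With neither trend nor robust fitting limma called 0, while 3508 shoulders and 29293 of all peaks had an unadjusted p under 0.05. Leaving out a library gave 0 to 530. The 733 touching peaks called lower became 3185 with values as deposited, 162 with equal totals, 182 with quantile normalization, 1357 at an FDR of 0.05 and 0 with neither trend nor robust fitting (1817 at an unadjusted p under 0.05), and 0 to 906 without a library. In each case the 0 came without hypoxia 1 and without hypoxia 2, where the lone library is assumed to vary like the normoxia pair. The AP-1 share of outward windows, 10.9%, was 7.49% in windows of 200 bp, where other edges had 5.02%.

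The study describes dividing the sorted cells between both oxygen levels, so same-numbered libraries may share an isolation. Same-numbered libraries did not deviate together (correlation 0.011 over all peaks and 0.0027 over shoulders), and the numbers were not taken as pairs. With 2 libraries per group this correlation cannot exclude pairing. With the replicate block limma called 720 shoulders and 1024 touching peaks lower (11.6% of each, all peaks 6.61%). The median of the paired log2 ratios of the shoulders was −3.11. A pair with hypoxia reads but no normoxia read puts its shoulder below every finite ratio in this median. No read fell in 31.5% of shoulders in normoxia 1 and in 33.1% in normoxia 2. The distance from −2.36 is therefore not read as an effect of pairing. At a median of 1 read per normoxia library, single shoulders are limited by depth.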

Other observations

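Of the 10 peaks that the caller assigned to normoxia alone, 3 touched a shared peak, as the shoulders do. The one nearest to Oxr1 held 0 reads in both hypoxia libraries and 18 and 20 in normoxia. The one nearest to Smok2b held 5 and 9 reads in hypoxia and 41 and 67 in normoxia. At 1200 bp wide and 171 bp from a coding start site, it is not the counterpart of a distal shoulder. The one nearest to Gm17019 held 0 in hypoxia and 9 and 3 in normoxia. These peaks were selected on the same contrast, and no test was made.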
